A study of Solanum tuberosum with 10 samples.

Results

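In potato stem explants, 20 genes stood at their highest in both libraries taken at 24 h, with lower levels before and after. They are the 20 of 38999 gene models without a symbol, in a table of 40430 features, that met a rule selected on measured levels. Levels are CPM, the counts of a gene scaled to one common total over all gene models of a library. A gene had to reach 3 CPM in both 24 h libraries, which 15522 did. Its score, the lower of the 24 h values plus 0.5 CPM over the highest of the other 8 libraries plus 0.5 CPM, had to exceed 2. The rule allowed up to 150 genes, so the score and not that limit set the number. All 10 libraries entered the score, so the 24 h peak itself is a description and carries no test.

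RNA was sequenced from in vitro plants of Solanum tuberosum, cultivar Desirée. Stem segments of a single node, each bearing one leaf, came from plantlets 4 weeks old. They were sampled fresh (0 h), after 24 h, after 48 h, after 1 week and after 4 weeks in each of 2 arms. Ultrasonicated explants were treated in an ultrasonicator bath, 90 explants to a 50 ml beaker with 40 ml of liquid medium, and control explants were not ultrasonicated. Both arms were then kept on Murashige and Skoog medium free of growth regulators. It is not stated in the sources used here whether control explants also went through liquid medium, so immersion and ultrasound cannot be told apart. Each arm and time is 1 library, made from a pool of 3 biological replicates. The tissue is labelled stem at 0 h and 24 h and stem and plantlet from 48 h on, so time and tissue cannot be told apart across that step. No marker genes could be named in the table to check these labels. In pooled tissue, fewer cells of a type and less RNA per cell cannot be told apart either.

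Cutting a stem node wounds the tissue and removes it from the shoot tip. Plant cells are known to answer a wound with defence hormones such as jasmonate, and the loss of the tip changes auxin and cytokinin supply and releases the axillary bud from dormancy. Many genes of such responses are switched on for a short time and return to low levels as the tissue heals and the bud grows out. None of these roles can be assigned to the 20 genes, because the table gives identifiers without descriptions and 0 of the 20 are listed in the RefSeq gene table of assembly SolTub_3.0. They are therefore described by identifier, position and values.

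Total counts per library ran from 122786170 to 161153911. The control library at 24 h had the lowest total, and 2.19% of its counts lay in rRNA features, against 0.0660% in the ultrasonicated library at 24 h. CPM was taken over gene models, so rRNA features are outside the denominator. At these depths 3 counts, the limit that a count of 0 allows, correspond to 0.0186 to 0.0251 CPM. The exact 95% Poisson interval of a 24 h value reached at most 7.44% from the value in the ultrasonicated library and 8.0% in the control library. Intervals cover counting error only.

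The 20 genes together were a small part of the transcriptome, with a single high sampling time. Their summed level in ultrasonicated explants was 323 CPM in fresh tissue, 2624 CPM at 24 h, 745 CPM at 48 h, 435 CPM after 1 week and 331 CPM after 4 weeks. In control explants the sum over the same times was 380, 2335, 903, 404 and 421 CPM. At 24 h they thus held 0.262% of gene-model counts in the ultrasonicated library and 0.234% in the control library. Single genes ran from 5.83 to 576 CPM at 24 h in ultrasonicated explants (median 60.2 CPM) and from 5.42 to 627 CPM in control explants (median 56.3 CPM). These levels are not divided by transcript length, so they do not rank the genes against each other.

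**Figure D1:**
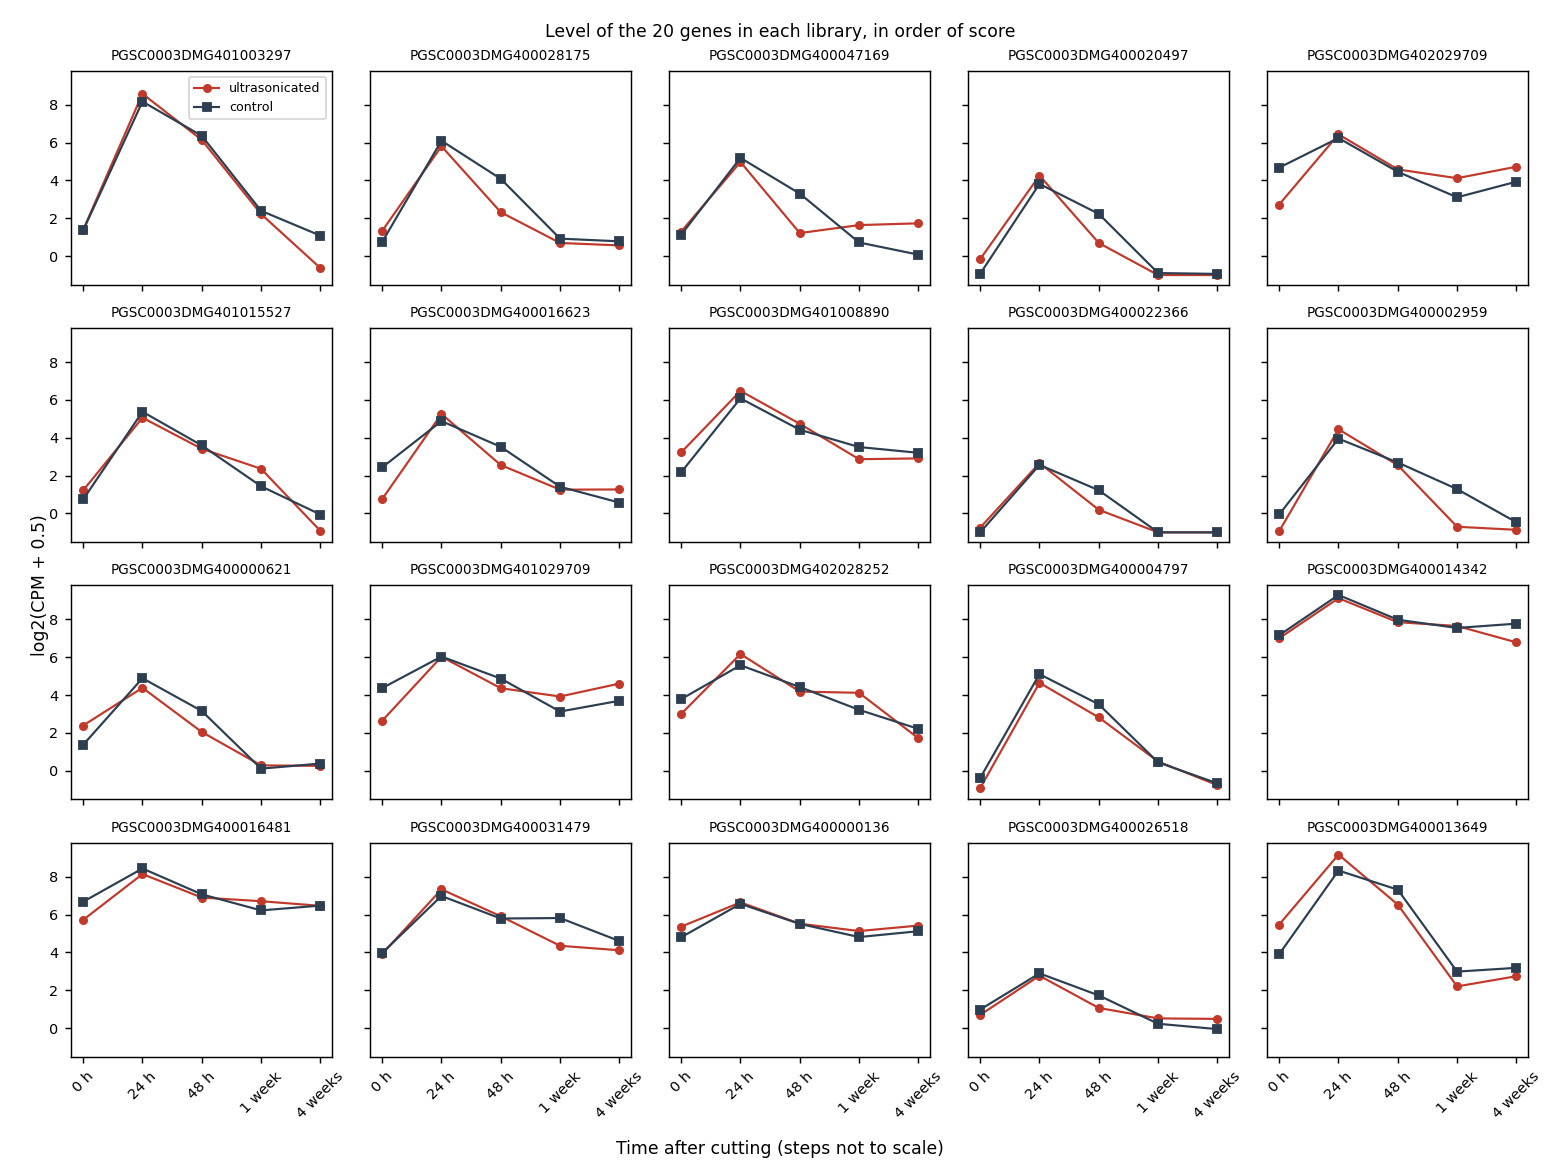
Level of each of the 20 genes as log2(CPM + 0.5) against time, with ultrasonicated libraries as red circles and control libraries as dark squares, 1 library per point and time steps not to scale. All 20 panels peak at 24 h in both arms, and the panels differ in how low they start and how far they fall by 4 weeks.

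Scores ran from 2.01 to 3.50 with a median of 2.36, and the series of scores had no gap at the limit. The last genes inside it were PGSC0003DMG400000136 (score 2.07), PGSC0003DMG400026518 (2.05) and PGSC0003DMG400013649 (2.01). The first outside were PGSC0003DMG400015228 and PGSC0003DMG400015160, both at 1.99, and PGSC0003DMG402030024 at 1.98. PGSC0003DMG400015228 lies within PGSC0003DMG400015160 on the other strand. At 24 h they had 23371 and 23520 counts in the ultrasonicated library and 21561 and 21632 in the control library. Their reads cannot be told apart without strand, so they are not read as separate genes. A score over 1.5 was reached by 104 genes and a score over 1, meaning both 24 h libraries above all others, by 1372. The same rule set on the other times took 640 genes for 0 h, 24 genes for 48 h, 73 genes for 1 week and 76 genes for 4 weeks. Isolated peaks were thus about as few at 24 h as at 48 h.

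**Figure D2:**
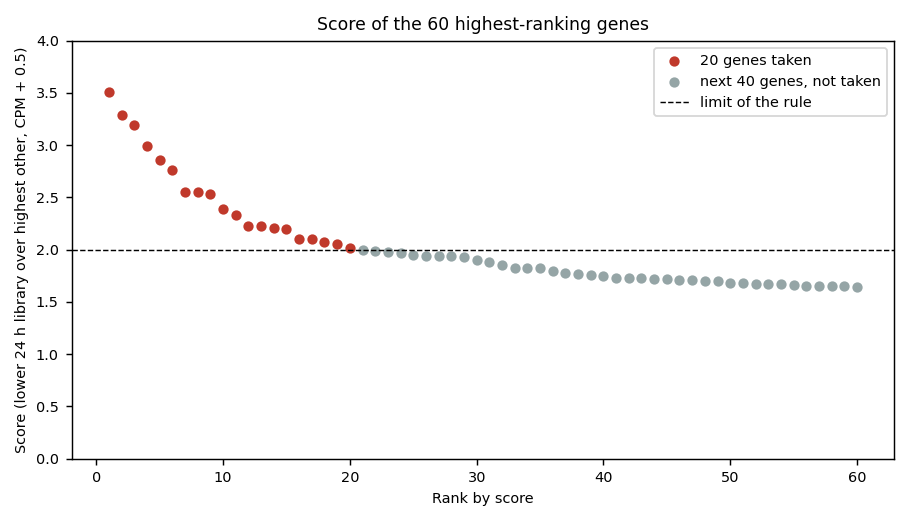
Score of the 60 highest-ranking genes by rank, with the 20 genes taken in red, the next 40 in grey and the limit of 2 as a dashed line. Scores pass from 2.01 to 1.99 across the limit without a step.

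Of the genes, 7 had a mean level in fresh explants below 5% of their mean 24 h level. This grouping by the share at 0 h was made after the values were seen. The share is relative to each gene's own peak, so the groups do not order the genes by 0 h level. The groups also depend on the scaling. With TMM scaling, which brings most genes to a common level, the 0 h shares rise and genes near a group limit change group. PGSC0003DMG401015527, one of the 7, then had means of 1.98 CPM at 0 h and 36.7 CPM at 24 h, above 5%. PGSC0003DMG401003297 (chromosome 1, 74453714 to 74457322, minus strand) had the highest score. In ultrasonicated explants it had 2.12 CPM in fresh tissue, 383 CPM at 24 h, 70.2 CPM at 48 h, 4.18 CPM after 1 week and 0.146 CPM after 4 weeks. In control explants it had 2.07, 288, 81.7, 4.77 and 1.62 CPM at the same times. Both arms were high and low at the same times, and their ratio was farthest from 1 at 4 weeks.

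PGSC0003DMG400028175 (chromosome 10, 55479295 to 55481138, minus strand) had 2.02, 55.6, 4.50, 1.12 and 0.982 CPM over the 5 times in ultrasonicated explants and 1.18, 68.2, 16.5, 1.40 and 1.22 CPM in control explants. Its fall after the peak was further in the ultrasonicated libraries, the 48 h level being 8.10% of the 24 h level there and 24.2% in the control libraries. PGSC0003DMG400020497 (chromosome 8, 1155038 to 1159487, plus strand) was alike in this. It had 0.395, 18.7, 1.12, 0 and 0 CPM in ultrasonicated explants and 0.0236, 13.6, 4.21, 0.0377 and 0.0217 CPM in control explants, so it was at or near the floor of 3 counts at 1 and 4 weeks in both arms.

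PGSC0003DMG400022366 (chromosome 2, 34583545 to 34584758, minus strand) was the other gene that could hardly be counted away from 24 h and 48 h. Ultrasonicated explants had 0.0933, 5.83, 0.643, 0 and 0 CPM over the 5 times and control explants 0, 5.42, 1.84, 0 and 0 CPM. It was at a count of 0 in 5 of the other 8 libraries and PGSC0003DMG400020497 in 2, while the other 18 genes had counts in every library.

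The remaining genes of this group had counts in every library. PGSC0003DMG400002959 (chromosome 4, 24861613 to 24864585, minus strand) had 0.0215, 21.4, 5.37, 0.114 and 0.0488 CPM in ultrasonicated explants and 0.463, 15.0, 5.97, 1.94 and 0.224 CPM in control explants. It was lower in ultrasonicated explants at every time but 24 h. PGSC0003DMG400004797 (chromosome 8, 52532859 to 52533558, plus strand) had 0.0287, 24.6, 6.56, 0.903 and 0.0906 CPM in ultrasonicated explants and 0.267, 34.0, 10.9, 0.860 and 0.130 CPM in control explants. PGSC0003DMG401015527 (chromosome 11, 45098995 to 45104053, plus strand) had 1.83, 32.9, 10.2, 4.64 and 0.0279 CPM in ultrasonicated explants and 1.17, 41.1, 11.6, 2.21 and 0.462 CPM in control explants. In both of these genes the control library was the higher one at 24 h and 48 h, and the mean level was lowest at 4 weeks.

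Another 4 genes started at 5% to 10% of their 24 h level. PGSC0003DMG400013649 (chromosome 2, 38214819 to 38218040, plus strand) had 43.9, 576, 91.8, 4.10 and 6.19 CPM over the 5 times in ultrasonicated explants and 14.5, 321, 159, 7.41 and 8.59 CPM in control explants. It was the member with the widest gap between the arms at 24 h, and by 1 week it had dropped below its 0 h level in both arms. PGSC0003DMG400016623 (chromosome 9, 60489530 to 60491348, plus strand) had 1.19, 37.8, 5.39, 1.89 and 1.91 CPM in ultrasonicated explants and 4.91, 29.0, 11.0, 2.16 and 0.989 CPM in control explants. PGSC0003DMG401008890 (chromosome 9, 1363475 to 1368952, minus strand) had 8.85, 88.8, 26.2, 6.80 and 7.02 CPM in ultrasonicated explants and 4.02, 67.4, 21.0, 10.9 and 8.73 CPM in control explants. At 1 and 4 weeks the last of these was below its 0 h level in ultrasonicated explants and above it in control explants.

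PGSC0003DMG400047169 (chromosome 5, 47556021 to 47557264, plus strand) belongs to the same group, with 1.96, 31.0, 1.83, 2.62 and 2.83 CPM in ultrasonicated explants and 1.69, 36.1, 9.39, 1.15 and 0.556 CPM in control explants. Its ultrasonicated library at 48 h was already back near the 0 h level. It shares 433 bases with PGSC0003DMG400011639 on the other strand, which had 114, 235, 50.5, 59.5 and 296 CPM in ultrasonicated explants and 96.0, 242, 169, 66.2 and 82.7 CPM in control explants. The libraries were made with a kit that keeps strand, but whether the counting used it was not stated, so reads of the shared stretch cannot be told apart. In CPM the 2 genes differed between arms in the same direction at every time but 1 week. At 1 week PGSC0003DMG400047169 was higher in ultrasonicated explants and PGSC0003DMG400011639 was higher in control explants.

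The other 9 genes stood at 10% or more of their 24 h level in fresh explants. PGSC0003DMG400014342 (chromosome 3, 42943572 to 42944472, minus strand) had 128, 557, 231, 201 and 110 CPM in ultrasonicated explants and 143, 627, 253, 187 and 219 CPM in control explants. PGSC0003DMG400016481 (chromosome 2, 36377154 to 36379312, plus strand) had 52.2, 282, 119, 104 and 87.7 CPM in ultrasonicated explants and 102, 346, 134, 74.1 and 88.5 CPM in control explants. At 1 week both stood at between 21.4% and 36.7% of their 24 h level in either arm. PGSC0003DMG400031479 (chromosome 11, 1521018 to 1521913, minus strand) had 14.6, 161, 59.6, 19.9 and 16.8 CPM in ultrasonicated explants and 15.2, 126, 54.9, 55.9 and 23.8 CPM in control explants. In the control arm it did not fall between 48 h and 1 week, whereas in the ultrasonicated arm it did.

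PGSC0003DMG400000136 (chromosome 1, 71421222 to 71426490, minus strand) had the flattest profile, with 40.6, 99.6, 45.3, 34.5 and 42.3 CPM in ultrasonicated explants and 27.4, 94.3, 45, 27.6 and 34.3 CPM in control explants. Only 39.5% of its CPM summed over the 5 times lay at 24 h, the lowest share of the 20, against a median of 69.5% and a highest share of 84.8% in PGSC0003DMG400020497. PGSC0003DMG402028252 (chromosome 10, 55851945 to 55856805, plus strand) had 7.52, 71.6, 17.7, 16.9 and 2.79 CPM in ultrasonicated explants and 13.3, 47.3, 21.0, 8.82 and 4.14 CPM in control explants. At 4 weeks it was below its 0 h level in both arms.

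Of this group, 2 more genes ended low. PGSC0003DMG400000621 (chromosome 3, 56477846 to 56478716, plus strand) had 4.75, 20.4, 3.64, 0.718 and 0.697 CPM in ultrasonicated explants and 2.09, 29.2, 8.44, 0.581 and 0.801 CPM in control explants. PGSC0003DMG400026518 (chromosome 6, 48149766 to 48153410, minus strand) had 1.12, 6.30, 1.59, 0.925 and 0.899 CPM in ultrasonicated explants and 1.47, 6.92, 2.81, 0.671 and 0.462 CPM in control explants. Both were below their 0 h level at 1 week and at 4 weeks in each arm.

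The last 2 members are one place in the genome. PGSC0003DMG402029709 (chromosome 2, 33695033 to 33696664, plus strand) lies wholly within PGSC0003DMG401029709 (33695033 to 33699331, minus strand), with 1632 bases in common. The first had 6.12, 86.3, 23.5, 16.9 and 26 CPM in ultrasonicated explants and 25.1, 75.3, 21.5, 8.14 and 14.8 CPM in control explants. The second had 5.74, 64.8, 20.1, 14.7 and 23.9 CPM in ultrasonicated explants and 20.2, 65.2, 28.8, 8.26 and 12.5 CPM in control explants. Reads of the pair cannot be told apart without strand, so the 20 gene models are 19 separate places. In ultrasonicated explants both were higher at 4 weeks than at 1 week, and in control explants likewise.

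The sampling time with the next highest mean level was 48 h in all 20 genes. The rule did not name that time, but the libraries outside 24 h entered its score, so this order is a description. Among the other 1352 genes with a score over 1 it was 48 h in 760 (56.2%) and 0 h in 71. The same score separates these genes from the 20, so nothing is read from the difference. With TMM scaling, which sets libraries to a common level of most genes, it was 48 h in 19 of the 20. The exception was PGSC0003DMG400000136, whose TMM-scaled mean was 44.8 CPM at 0 h, 95.9 CPM at 24 h and 40.9 CPM at 48 h. The next mean in order was that of 1 week in 10 genes, 0 h in 7 and 4 weeks in 3. The lowest mean was at 4 weeks in 11 genes, at 1 week in 5 and at 0 h in 4. The single highest library outside 24 h was the control library at 48 h in 16 genes, the ultrasonicated library at 48 h in 3 and the ultrasonicated library at 4 weeks in 1.

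Averaged over arms, levels at 48 h were 16.5% to 46.6% of those at 24 h (median 29.6%), and 14 of the 20 genes were below 33%. The median was 8.69% at 0 h, 7.66% at 1 week and 4.69% at 4 weeks. On the scale log2(CPM + 0.5), which understates the change of low genes, 24 h stood above 0 h by 1.5 to 7.02 (median 3.37) and above 48 h by 1.09 to 2.50 (median 1.71). As 48 h held the highest other library in 19 of the 20 genes, the score limits the spread of the 48 h values, and nothing is read from it.

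The fall between 24 h and 48 h was further in ultrasonicated than in control explants for most of the genes. The share of the 24 h level left at 48 h had a median of 25.2% (5.88% to 45.5%) in the ultrasonicated arm and 36.0% (24.2% to 49.6%) in the control arm. It was smaller in the ultrasonicated arm in 17 of 20 genes, both gene models of the overlapping pair among them. The same count over all features was not made on this measure, so the 17 is not read as particular to the genes. With TMM scaling, given below beside all features, the count was 14 of 20. The exceptions were PGSC0003DMG401015527, with 30.9% in ultrasonicated and 28.2% in control explants, PGSC0003DMG400016481, with 42.0% in ultrasonicated and 38.7% in control explants, and PGSC0003DMG400014342, with 41.5% in ultrasonicated and 40.4% in control explants. The widest gaps were in PGSC0003DMG400013649, with 15.9% in ultrasonicated and 49.6% in control explants, and PGSC0003DMG400020497, with 6.01% in ultrasonicated and 30.9% in control explants.

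With TMM scaling and on the scale log2(CPM + 0.5), the 48 h over 24 h change was more negative in the ultrasonicated arm in 14 of 20 genes. The median difference of the changes, ultrasonicated minus control, was -0.48, with a range of -1.88 to 0.22. Over all 24421 features it was below 0 in 46.8% with a median of 0.04, and over the other 1352 genes with a score over 1 it was below 0 in 40.1% with a median of 0.12. Each term of this difference is 1 library, so it has no test. The 24 h and 48 h libraries of both arms also entered the rule.

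**Figure D3:**
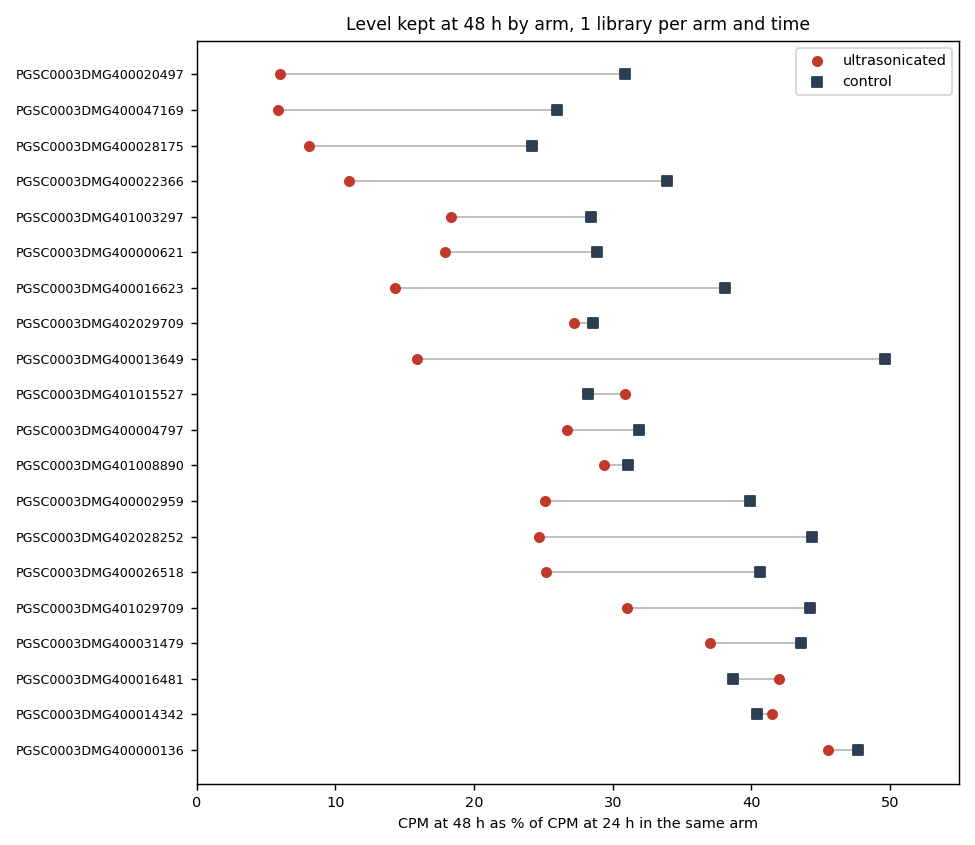
CPM at 48 h as a percentage of CPM at 24 h in the same arm for each of the 20 genes, ordered by the mean over arms, with ultrasonicated explants as red circles and control explants as dark squares. The red circle lies left of the square in 17 of 20 genes, and all values are below 50%. The same count over all features was not made on this measure.

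The arms were then compared at each time as the ratio of TMM-scaled counts, ultrasonicated over control, with an exact 95% Clopper-Pearson interval. A gene counts as called when its whole interval lies beyond 2-fold. There is 1 library per arm and time, so the intervals compare libraries and no p-value can be given. Gene-model totals in place of TMM shift the median of all features at 0 h to -0.28 log2 units, against 0.00 with TMM, and by under 0.1 at the other times.

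At 24 h, the time of the peak, 0 of the 20 genes was called higher, where 5.20% of all 24421 features were, and 0 was called lower, where 7.15% were. The rule takes the lower of both 24 h libraries and so favours genes with like levels in both, and nothing is read from these counts. Ratios ran from 0.682 in PGSC0003DMG400000621 (interval 0.648 to 0.718) to 1.76 in PGSC0003DMG400013649 (1.74 to 1.78). PGSC0003DMG402028252 stood at 1.48 (1.43 to 1.53) and PGSC0003DMG400004797 at 0.708 (0.676 to 0.742). In all, the interval lay above 1 in 10 genes and below 1 in 8. The same share over all features was not computed. Every one of the genes had at least 648 counts in the control and 746 in the ultrasonicated library at 24 h. Such counts give narrow intervals, so these 2 numbers are not read as particular to the genes.

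At 0 h, 5 of 20 genes were called higher (11.6% of all features) and 5 lower (11.2% of all features). PGSC0003DMG400020497 had 55 counts in the ultrasonicated library and 3 in the control library, a ratio of 21.5 (6.99 to 108), and PGSC0003DMG400013649 had 6112 ultrasonicated and 1841 control counts, a ratio of 3.90 (3.70 to 4.11). PGSC0003DMG400022366 had 13 counts in the ultrasonicated library and 0 in the control library. Its exact interval starts at 3.58, on which the call rests, and the ratio is 5.09 when the control library is set to 3 counts. PGSC0003DMG400002959, with 3 counts in the ultrasonicated and 59 in the control library, had a ratio of 0.0597 (0.0120 to 0.183), and PGSC0003DMG402029709 one of 0.313 (0.290 to 0.338). PGSC0003DMG401008890 (2.83) and PGSC0003DMG400000621 (2.92) were the other genes called higher, and their calls ended with gene-model totals, at 2.20 and 2.28. PGSC0003DMG400016623 (0.312), PGSC0003DMG401029709 (0.365) and PGSC0003DMG400004797 (0.138, on 4 ultrasonicated and 34 control counts) were the other genes called lower. The genes called at 0 h thus differed between the arms in both directions. PGSC0003DMG402029709 and PGSC0003DMG401029709 overlap and their reads cannot be told apart, so their calls are not separate. Both 0 h libraries entered the rule, so these calls are a description, and no effect of ultrasound is read from them.

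At 48 h, 0 genes were called higher (2.64% of all features) and 5 of 20 lower (5.04% of all features). These were PGSC0003DMG400047169 at 0.203 (0.176 to 0.232), PGSC0003DMG400020497 at 0.278 (0.232 to 0.332), PGSC0003DMG400028175 at 0.284 (0.259 to 0.310), PGSC0003DMG400022366 at 0.365 (0.284 to 0.465) and PGSC0003DMG400000621 at 0.450 (0.405 to 0.499). Their intervals lay below those of the same genes at 24 h, where the 5 ratios were 0.682 to 1.35. Whether called or not, the ratio at 48 h was above 1 in 4 of the 20 genes, against 54.0% of all features, and the median log2 ratio was -0.32 in the 20 genes and 0.04 in all features. The highest was PGSC0003DMG401008890 at 1.30 (1.24 to 1.36). Both 48 h libraries entered the rule, and the control one was the highest library outside 24 h in 16 of the 20 genes. The counts and medians at 48 h are therefore a description, and no effect of ultrasound is read from them.

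At 1 week, 2 genes were called higher (6.74% of all features), PGSC0003DMG400047169 at 2.42 (2.0 to 2.95) and PGSC0003DMG402029709 at 2.22 (2.06 to 2.39). Both calls ended with gene-model totals (2.27 and 2.08), and that of PGSC0003DMG400047169 also with median-ratio size factors (2.40). Another 2 were called lower (10.4% of all features), PGSC0003DMG400002959 at 0.0628 (0.0353 to 0.104), on 16 ultrasonicated and 257 control counts, and PGSC0003DMG400031479 at 0.380 (0.363 to 0.397). At 4 weeks 1 gene was called higher (5.95% of all features), PGSC0003DMG400047169 at 4.91 (3.84 to 6.35), where the overlapping PGSC0003DMG400011639 had 296 CPM in ultrasonicated and 82.7 CPM in control explants. The part of that gene's reads in this ratio was not tested.

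At 4 weeks 4 genes were called lower (6.38% of all features). PGSC0003DMG401015527 had 4 counts in the ultrasonicated and 64 in the control library, a ratio of 0.0582 (0.0154 to 0.156), and PGSC0003DMG401003297 had 21 ultrasonicated and 224 control counts, a ratio of 0.0873 (0.0530 to 0.137). PGSC0003DMG400002959 stood at 0.210 (0.0781 to 0.486) and PGSC0003DMG400014342 at 0.486 (0.476 to 0.495), and both calls ended with gene-model totals, at 0.218 and 0.504. The first 3 of these 4 genes had their lowest mean level at 4 weeks.

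**Figure D4:**
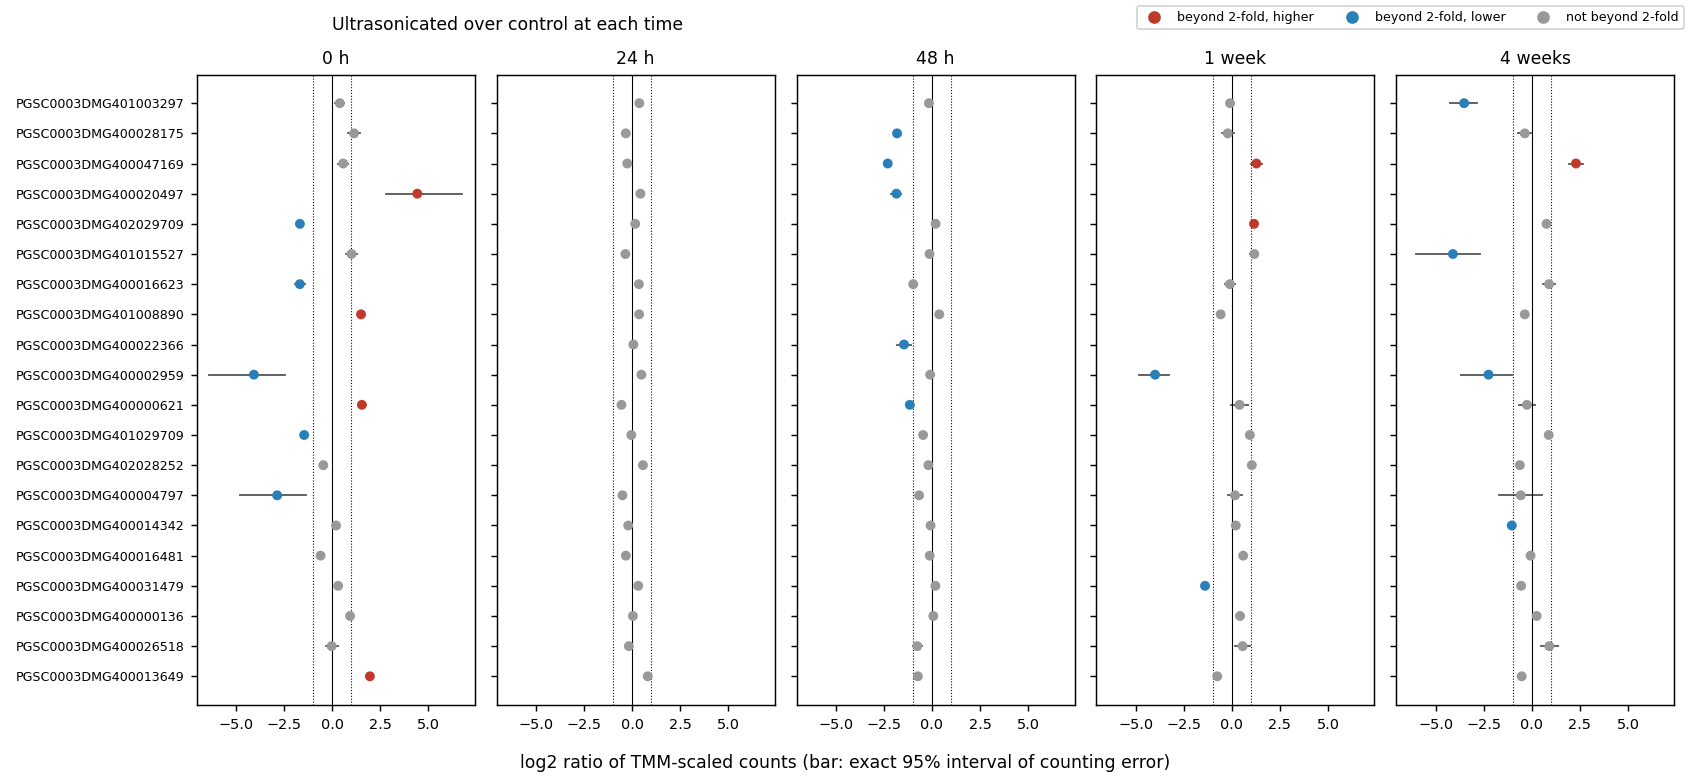
Log2 ratio of TMM-scaled counts, ultrasonicated over control, for the 20 genes at each of the 5 times, with exact 95% intervals as bars and dotted lines at 2-fold. Red and blue points have their whole interval beyond 2-fold, higher or lower with ultrasound, and a gene with no count in a library has no point. The points lie closest together at 24 h, where the rule favours genes with like levels in both libraries, so nothing is read from that spread. The blue points at 48 h are the 5 genes called lower there.

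A change with ultrasound common to the 5 times was tested over all features with edgeR's quasi-likelihood F-test, with time as a block, so that the 5 time pairs are the replicates. After Benjamini-Hochberg adjustment it called 0 of 24421 features (0%), and so 0 of the 20 genes, and at an unadjusted p under 0.05 it had 815 features (3.34%) and again 0 of the 20. DESeq2 called 55 features and limma-voom 0, in both cases with 0 of the 20 genes. All 10 libraries also entered the rule that chose the 20 genes. Their results in this test are therefore a description, and nothing is read from the 0 of 20. The gene with the smallest p was PGSC0003DMG400002959, at -1.75 log2 units (SE 0.795, edgeR adjusted p = 0.999), lower in 4 of 5 pairs. Its estimate was -2.60 to -1.10 without each time pair in turn and -0.11 with limma-voom. PGSC0003DMG400004797 had -0.72 (SE 0.382, edgeR adjusted p = 0.999), also lower in 4 of 5, and -0.37 without the 0 h pair. In the other direction PGSC0003DMG400000136 had 0.34 (SE 0.170, edgeR adjusted p = 0.999), higher in 5 of 5 pairs, and 0.21 without the 0 h pair. PGSC0003DMG401008890 had 0.25 (SE 0.299, edgeR adjusted p = 0.999), higher in 3 of 5, and -0.04 without the 0 h pair, so its direction rests on that pair.

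Whether the ultrasound effect at 24 h differed from its mean over the other 4 times was tested with an interaction term, which leaves 3 residual degrees of freedom. edgeR called 0 of 24421 features (0%) and 0 of the 20 genes, and had 649 features (2.66%) and 0 of the 20 at an unadjusted p under 0.05. DESeq2 called 108 features and limma-voom 0, again with 0 of the 20. The rule favours genes with like levels in both 24 h libraries and limits the other libraries. Nothing is therefore read from the 0 of 20 here, and the estimates below are a description. The largest estimate among the 20 was that of PGSC0003DMG400002959. Its log2 ratio of ultrasonicated over control was estimated 2.97 higher at 24 h than on average over the other times (SE 1.5, edgeR adjusted p = 1). With limma-voom that estimate was 1.46. PGSC0003DMG400031479 had 0.69 (SE 0.679, edgeR adjusted p = 1), PGSC0003DMG400000136 -0.37 (SE 0.446, edgeR adjusted p = 1) and PGSC0003DMG400000621 -0.68 (SE 0.997, edgeR adjusted p = 1). Leaving out 1 pair moved these 3 estimates to 0.35 for PGSC0003DMG400031479 without 1 week, and without 0 h to -0.19 for PGSC0003DMG400000136 and -0.19 for PGSC0003DMG400000621. With total counts PGSC0003DMG400000136 was also at -0.19.

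The genes were scattered over the genome. They lay on 10 chromosomes, with 5 gene models on chromosome 2, 2 each on chromosomes 1, 3, 8, 9, 10 and 11, and 1 each on chromosomes 4, 5 and 6. Coordinates are those of the table, on a build that is not named in the sources used here. Of the 20, 10 lay on the plus and 10 on the minus strand, and 50.1% of all gene models are on the plus strand. Their genomic span ran from 700 to 5478 bases with a median of 2566, against a median of 4099 for the 15522 gene models at 3 CPM or more in both 24 h libraries and 2242 for all gene models. Besides the overlapping pair on chromosome 2, no members were next to each other. An overlap with another feature was found for 3 of 20 (15.0%), against 7.53% of all gene models.

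The gene models on either side were looked at for the same peak. Of 32 such neighbours that were not members and reached 3 CPM in a library, 5 (15.6%) were highest in both 24 h libraries, and 1397 of 19660 gene models at that level (7.11%) were. The clearest was PGSC0003DMG402003297, 2699 bases from PGSC0003DMG401003297 on the same strand and with the same closing digits. It had 15.2, 184, 50.2, 24.2 and 12.6 CPM over the 5 times in ultrasonicated explants and 16.9, 121, 75.0, 21.8 and 11.5 CPM in control explants, a score of 1.60. PGSC0003DMG402008890, 2321 bases from PGSC0003DMG401008890 and likewise matched in strand and closing digits, had 6.5, 90.8, 34.8, 8.23 and 3.57 CPM in ultrasonicated explants and 2.40, 54.9, 39.0, 12 and 4.38 CPM in control explants, a score of 1.40. The other 3 had scores of 1.07 to 1.18, so the lower 24 h library was little above the highest of the other libraries. Whether these neighbours are copies of the members or parts of the same gene was not tested.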

How the data were processed

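The authors deposited unnormalized whole-number counts for every feature, in 1 column per library, each matched to its label. HISAT2 2.1.0, Trim Galore 0.5.0 and FastQC 0.11.5 are named, per the submitters' processing notes. Build, annotation, counting program and strand setting were not given in the sources used here, so counts of near-identical copies and of overlapping or antisense genes are uncertain. Of the features, 1409 are noncoding and 22 gene models carry a symbol.

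The rule for the genes, and the lists of settings, were chosen with earlier results of these data known. Features were kept by filterByExpr on arm (24421) and scaled by TMM in edgeR 4.0.16 (R 4.3.3), with Benjamini-Hochberg adjustment at 0.05. DESeq2 1.42.0 and limma 3.58.1 were alternatives. All 20 genes passed the filter. Both models were run on simulated counts with planted changes and a set spread. That spread was not taken from these libraries, so how small a change the tests could find here was not measured. The approximate SE is the size of the log2 fold change over the root of F. Each p-value rests on the spread among pooled libraries and not among plants. Intervals used scipy 1.17.1. Named genes were to be those extreme in score, level, arm ratio, edgeR p or 48 h to 24 h ratio and those next to each other, and as only 20 genes met the rule all are named.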

Additional observations from a re-analysis of the deposited data

How the results depend on the processing

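Of the alternatives for counts of genes, 69 stayed within 1.5 times the reported count and 19 did not. A limit of 1.5-fold in place of 2-fold gave 8 genes higher at 0 h, 1 gene at 24 h, 5 genes at 1 week and 4 genes at 4 weeks. A limit of 4-fold gave 1 higher and 1 lower at 0 h, 1 lower at 48 h, then 0 higher and 1 lower at 1 week, then 0 higher and 2 lower at 4 weeks. Gene-model totals gave 3 genes higher at 0 h, 0 higher at 1 week and 2 lower at 4 weeks. Median-ratio size factors gave 1 higher at 1 week. Over all features, the numbers called at the same times and in the same directions also rose with the 1.5-fold limit. They also fell with the other settings named here. These changes are therefore not read as particular to the 20 genes. DESeq2 called 55 features for the common effect and 108 for the interaction, edgeR 0 in each, and the cause was not tested. No called ratio of a single gene changed direction, and the ratio calls that ended with another scaling are those named in the report. Leaving out a time pair left both edgeR counts at 0.

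The rule took 28 genes with TMM or median-ratio factors, 19 of them among the 20, and PGSC0003DMG400000136 was lost at 1.60 and 1.55. A constant of 0.1 CPM took 22 genes with all 20 among them, and one of 2 CPM took 18, losing PGSC0003DMG400022366 (1.93) and PGSC0003DMG400026518 (1.73). With the ultrasonicated arm alone 396 genes scored over 2, cut to 150 by the limit, with 15 of the 20 among them, and with the control arm alone 144 did, with all 20. Fewer libraries set the maximum there, so more genes pass by construction. Single libraries limit every ratio here.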
